A study of Homo sapiens with 2 samples.

Results

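The 10 genes described here encode small actin-binding proteins (TMSB10, TMSB4X), regulatory and essential light chains of non-muscle myosin II (MYL12A, MYL12B, MYL6), tropomyosins (TPM1, TPM3, TPM4) and 2 proteins that act on actin filament assembly and bundling (ENAH, LIMA1). They are 10 of the 33538 genes counted in single cells of CHLA9 and TC71. They were chosen by their levels per line, their co-variation across cells and their cell cycle pattern, TMSB10, MYL12A and MYL12B for one direction and TPM4, ENAH and LIMA1 for the other. These values are therefore given as descriptions, with no test.

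Actin moves between a pool of single subunits and filaments. Beta-thymosins bind single subunits and keep them out of filaments, tropomyosins lie along filaments and control which other proteins reach them, and myosin II pulls on filaments to produce contraction. The myosin light chains sit on the neck of the motor, and phosphorylation of the regulatory chain turns the motor on. These proteins shape cell adhesion, migration and division, and cultured cells express most of them.

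CHLA9 and TC71 are established lines from Ewing sarcoma, a bone and soft tissue cancer driven by a fusion of EWSR1 to an ETS gene. Neither line was treated. The medium was IMDM with 20% serum and an insulin supplement for CHLA9, and RPMI with 10% serum for TC71. Both were detached with trypsin and profiled as 1 droplet library each with a 3′ kit that tags every captured RNA with a unique molecular identifier (UMI). CHLA9 was also sequenced on a second instrument, so line, medium and sequencing cannot be told apart, and a further line and xenografts were not analysed here.

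Cells with at least 5000 UMIs, at least 2000 detected genes and at most 15% mitochondrial UMIs were kept. These were 4524 of 5077 barcodes in CHLA9 (174975302 UMIs, median 34656 per cell) and 1729 of 8468 in TC71 (58355173 UMIs, median 33370). Only 3 barcodes were kept in both libraries. The 7 markers of Ewing sarcoma cells lay between 9.89 and 2511 CPM (UMIs per 1000000) in CHLA9 and between 23.0 and 1451 CPM in TC71. All 9 immune, endothelial and epithelial markers stayed under 10 CPM in both lines, with CD3E, VWF and KRT5 at 0 in both. Of the 6 fibroblast or smooth muscle markers, COL1A2 stood at 203 CPM in CHLA9 but at 0.034 CPM in TC71. COL1A1 had 56.0 and 10.2 CPM, ACTA2 27.0 and 9.07, and PDGFRB 23.2 and 3.62. MYH11 (0.274 and 0.034 CPM) and DES (0.034 and 0) were near 0 in both lines. The part of these genes in the differences below was not tested.

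A UMI counts 1 molecule whatever its length, so levels were not divided by transcript length. Intervals in parentheses are exact 95% intervals for summed UMIs and cover counting error only, because cells of 1 library are not replicates. The 10 genes together held 0.561% of UMIs in CHLA9 and 0.412% in TC71.

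TMSB10, which binds single actin subunits, was the most abundant of the 10 in both lines. It reached 2804 CPM (2796 to 2812) in CHLA9 and 1406 CPM (1397 to 1416) in TC71, a 1.99-fold difference that lay just inside the 2-fold limit used below. Every cell held it: at 10000 UMIs per cell, the lowest, median and highest CHLA9 cells had 4, 27 and 63 UMIs, and the TC71 cells 1, 14 and 42. The ranges overlapped, although the median CHLA9 cell had more TMSB10 than the median TC71 cell. TMSB10 lies on chromosome 2 at 84905656 to 84906671 (GRCh38, plus strand), and its single annotated transcript has 3 exons.

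TMSB4X, the other beta-thymosin, differed more than any other of the 10. It stood at 5.01 CPM (4.69 to 5.36) in CHLA9 and 166 CPM (162 to 169) in TC71, 33.1-fold higher in TC71. With 1 UMI or more counted as detection at 10000 UMIs per cell, it was found in 1.42% of CHLA9 cells (1.09 to 1.81, Clopper-Pearson) and 73.5% of TC71 cells (71.3 to 75.6). Neither library holds a cell type known to lack TMSB4X, so no background from free RNA was set beside these shares. It lies on chromosome X at 12975110 to 12977227, plus strand. Of 410 windows of 91 bases at the end of its main transcript, 2 were shared with the processed copy TMSB4XP4, and no such window was shared for the other 9 genes.

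The few TMSB4X molecules of CHLA9 were held by few cells. At full depth, 4407 of 4524 CHLA9 cells (97.4%) had none, 57 had 1 and 52 had 3 or more. A pair of cells held 240 and 209 UMIs, 51.2% of the line's total, and the next highest cell had 18. Without this pair the level in CHLA9 was 2.45 CPM and the log2 ratio of TC71 over CHLA9 rose from 5.05 to 6.08. In TC71, by contrast, 97 of 1729 cells had none and the highest had 45. The 1% of cells with the most TMSB4X held 89.6% of its UMIs in CHLA9 and 4.75% in TC71.

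**Figure D1:**
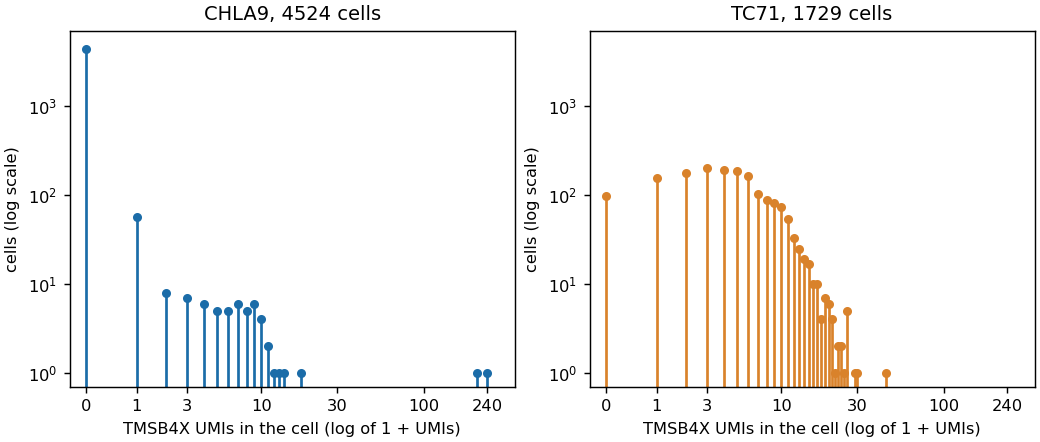
Number of cells (vertical, log scale) by TMSB4X UMIs per cell at full depth (horizontal, log of 1 plus UMIs), CHLA9 left and TC71 right, each point standing for the cells with that number of UMIs. In CHLA9, 4407 cells sit at 0 and 2 cells stand apart at 209 and 240, and in TC71 the cells spread from 0 to 45.

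The pair of CHLA9 cells, singled out after their values were seen, differed from the other CHLA9 cells in most of the 10 genes. Their summed TPM4 was 1122 CPM against 349 in the other cells, TPM3 2083 against 806, MYL12B 759 against 279, and MYL6 1543 against 782. TMSB10 was lower, at 1425 against 2805 CPM. Beta-actin (ACTB) stood at 7590 against 2099 CPM, and the actin-binding CALD1 at 329 against 74.3. CD99 was present at 1611 against 1141 CPM, CCND1 at 1754 against 2511 and COL1A2 at 447 against 203. BCL11B stood at 143 CPM (83.5 to 230) against 217 in the other cells. FLI1 had 1 UMI (8.43 CPM for the pair, 0.214 to 47.0, against 38.2 in the other cells). PTPRC and PECAM1, markers of leukocytes and endothelium, were at 0, and the epithelial marker EPCAM had 2 UMIs in 1 of the cells (16.9 CPM for the pair, 2.04 to 60.9, against 0.034 in the other cells). Both cells were placed in G1. They had 56071 and 62500 UMIs, more than 89.1% and 92.6% of CHLA9 cells. Whether they are CHLA9 cells or cells of another source was not tested.

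The myosin light chains differed less between the lines. MYL12B, a regulatory light chain, stood at 279 CPM in CHLA9 and 458 in TC71 (log2 difference 0.71). Its neighbour MYL12A stood at 281 and 343 CPM (0.29), and MYL6, the essential light chain, at 783 and 653 CPM (-0.26). In CHLA9 the intervals of MYL12A and MYL12B overlapped, whereas in TC71 MYL12B was higher beyond counting error. Both genes lie on chromosome 18, plus strand, at 3247481 to 3256236 and 3261479 to 3278461, with 5242 bases between them, and the antisense gene MYL12-AS1 overlaps both. MYL6 lies on chromosome 12 at 56158346 to 56163496, plus strand, and overlaps MYL6B on that strand. Thinned to 10000 UMIs, 1 TC71 cell reached 34 UMIs of MYL12B, against a median of 4 for the line.

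Among the 3 tropomyosins of the set, TPM3 was the most abundant, with 807 CPM in CHLA9 and 504 in TC71 (log2 difference -0.68). TPM4 followed with 350 and 280 CPM (-0.32). TPM1 was scarce, at 16.9 and 24.4 CPM (0.53), and was seen in 15.01% and 22.5% of thinned cells. TPM3 lies on chromosome 1 at 154155308 to 154194648 (minus strand), TPM4 on chromosome 19 at 16067021 to 16103002 and TPM1 on chromosome 15 at 63042620 to 63071915 (both plus). A 3′ count does not separate the many isoforms that each tropomyosin gene produces. Without TPM2, which is not among the 10, the sum of these 3 genes was 1174 CPM in CHLA9 and 808 CPM in TC71.

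ENAH, which supports filament elongation at the leading edge, stood at 210 CPM in CHLA9 and 164 in TC71 (log2 difference -0.36). LIMA1, which bundles and stabilises filaments, went the other way with 77.6 and 123 CPM (0.66), so that their sum was 288 CPM in CHLA9 and 287 in TC71. ENAH lies on chromosome 1 at 225486765 to 225653142 and LIMA1 on chromosome 12 at 50175788 to 50283520, both on the minus strand. In TC71 the intervals of TMSB4X and ENAH overlapped. Apart from these and MYL12A with MYL12B in CHLA9, neighbours in the order of levels within a line were separated beyond counting error.

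Only TMSB4X, 1 of the 10, was past 2-fold higher in TC71, where 8.8% of 9258 genes were (those reaching 10 CPM in either line). None of the 10 was 2-fold higher in CHLA9, where 16.3% of those genes were. The median log2 difference was 0.01 for the 10 genes and -0.21 for all 9258. For the 2036 genes with at least 100 CPM in either line, nearer the 10 in level, it was -0.05. These levels were among the values that chose the genes.

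**Figure D2:**
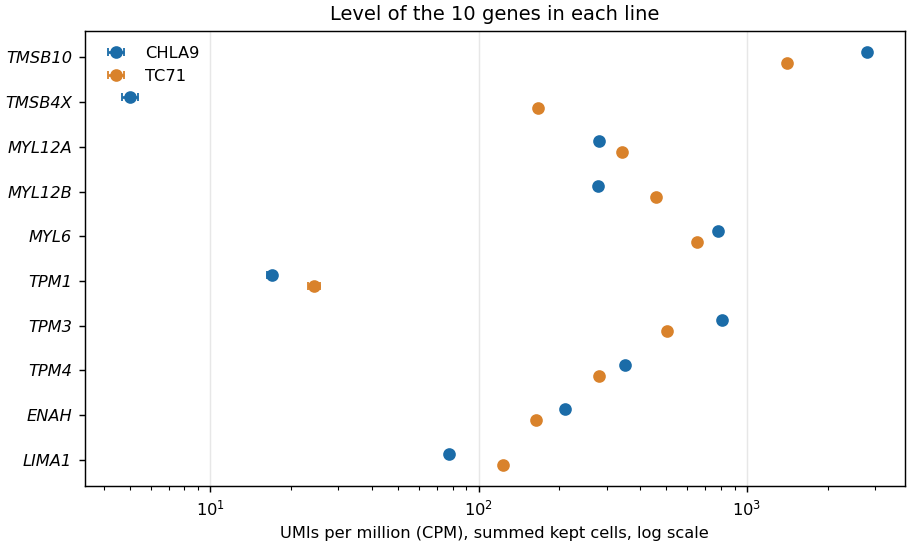
Summed level of each gene in the kept cells of CHLA9 and TC71 in CPM (horizontal, log scale), with exact 95% Poisson intervals that are mostly narrower than the points. TMSB4X lies at 5.01 CPM in CHLA9 and 166 CPM in TC71, while each of the other 9 genes differs by less than 2-fold between the lines.

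A further 8 lists covered actin and myosin genes, focal adhesion, cytokinesis and the response to the regulators SRF and YAP. Of their 117 genes, 98 reached 10 CPM in either line, and of these 7 were 2-fold higher in TC71 and 17 in CHLA9. These shares lie near the 8.8% and 16.3% of all tested genes given above. Of the actins, ACTG1 stood at 3074 and 3069 CPM in CHLA9 and TC71, ACTB at 2103 and 1457, and the smooth muscle ACTA2 at 27.0 and 9.07. The subunit-binding PFN1 had 847 and 452 CPM, and the severing protein CFL1 936 and 915, whereas its paralogue CFL2 was 2.98-fold higher in TC71 (46.4 and 138 CPM). Of the heavy chains on which the light chains sit, MYH10 (185 against 55.1 CPM) and MYH9 (165 against 74.9) were higher in CHLA9. The scarce MYH14 had 0.103 CPM in CHLA9 against 0.891 in TC71. Of the filament-binding genes, CALD1 had 74.5 CPM in CHLA9 and 1.54 in TC71, and FSCN1, a bundler, stood at 191 and 73.4. WDR1 (72.3 and 35.0 CPM), EVL (97.4 and 41.1), ACTN1 (114 and 51.6) and CNN3 (88.5 and 41.0) were also past 2-fold higher in CHLA9. CAPG (0.617 and 37.5 CPM) and PLS1 (0.474 and 27.98 CPM) differed more than CALD1 and were higher in TC71. TPM2, a tropomyosin outside the 10 genes, had 345 and 406 CPM. Of further smooth muscle genes, TAGLN had 3.58 and 0.566 CPM, CNN1 6.96 and 0.069, ACTG2 4.77 and 0.411, and MYL9 1 UMI in CHLA9 and 0 in TC71. The myosin light chain kinase gene MYLK went the other way with 0.652 and 1.82 CPM. All of these lay under 10 CPM in both lines. ACTA2, CAPG, PLS1, CNN1, ACTG2, MYLK and MYH14 lie outside the rule for naming list genes and were added here after their values were seen.

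RefSeq promoter windows on GRCh38.p14, from 250 bases before to 50 after each annotated start, matched all 10 genes in 18 windows. They were searched on both strands for the CArG box bound by SRF (CC, then 6 bases each A or T, then GG), the ETS pair GGAAGGAA, the TEAD motif GGAATG and TATAAA. The CArG box was found in 1 window, the first of TPM4, and in 1.29% of all 35116 promoters. GGAAGGAA was found in 1 window of MYL12A (3.67% of all promoters), GGAATG in 2 windows, of MYL12A and LIMA1 (14.0%), and TATAAA in 0 of 18 (11.5%). The shorter TATAA was searched only after these sequences had been seen and TATAAA had given no match. It was found in 5 windows of 4 genes (20.4% of all promoters), and every TATAAA match is also a match of it.

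The 250 bases before the start are shown for the first TPM4 window, which holds the CArG box, and for both thymosins, which had the largest line differences. Capitals mark the CArG box and TATAA. In the first TPM4 window the box begins 173 bases and TATAA 32 bases before its start, and TPM4 windows 2 and 3 hold neither. Which start the lines use was not tested. In TMSB10 TATAA begins 30 bases before the start, and TMSB4X holds neither. A match describes letters only, and no match says nothing about a factor. The windows are chr19:16067288-16067537 for TPM4, chr2:84905406-84905655 for TMSB10 and chrX:12974860-12975109 for TMSB4X, all on the plus strand.
TPM4: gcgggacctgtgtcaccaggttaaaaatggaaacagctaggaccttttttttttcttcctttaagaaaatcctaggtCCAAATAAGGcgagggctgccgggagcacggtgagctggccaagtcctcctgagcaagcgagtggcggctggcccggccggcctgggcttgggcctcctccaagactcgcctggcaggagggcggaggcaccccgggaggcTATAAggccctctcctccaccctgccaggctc
TMSB10: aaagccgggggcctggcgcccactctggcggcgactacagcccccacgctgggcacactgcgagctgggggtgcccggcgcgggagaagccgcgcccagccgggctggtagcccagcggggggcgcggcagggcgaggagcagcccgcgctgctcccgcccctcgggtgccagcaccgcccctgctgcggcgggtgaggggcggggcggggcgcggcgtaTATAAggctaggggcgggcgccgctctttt
TMSB4X: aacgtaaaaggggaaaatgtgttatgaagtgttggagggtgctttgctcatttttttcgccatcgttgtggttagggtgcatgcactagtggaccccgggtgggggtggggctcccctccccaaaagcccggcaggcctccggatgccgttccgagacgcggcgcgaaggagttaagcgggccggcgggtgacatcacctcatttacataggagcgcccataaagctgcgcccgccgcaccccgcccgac

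Levels were next compared between cell cycle phases, which were scored with lists of 43 S and 54 G2M genes that include none of the 10. In CHLA9, 1015 cells were placed in G1, 1743 in S and 1766 in G2M. In TC71 the numbers were 226, 834 and 669. Median UMIs per cell rose from 29196 in G1 to 40896 in G2M in CHLA9, and levels are relative to the total of each phase.

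TMSB10 and the 3 myosin light chains were higher in G1 than in G2M in both lines. TMSB10 went from 3022 CPM in G1 to 2910 in S and 2622 in G2M in CHLA9, and from 1554 to 1422 and 1350 CPM in TC71, a log2 difference of 0.20 in each. MYL12B differed by 0.26 in CHLA9 and 0.29 in TC71, MYL12A by 0.29 and 0.24, and MYL6 by 0.13 and 0.16. TMSB4X in TC71 was also higher in G1 (195 against 154 CPM, 0.34). Its log2 difference of 3.11 in CHLA9 fell to 0.75 without the pair of cells described above.

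LIMA1 and ENAH were lower in G1 than in G2M. LIMA1 was highest in G2M, with 79.3, 64.4 and 88.2 CPM in G1, S and G2M of CHLA9 and 110, 108 and 144 CPM in TC71. Its S level was below its G1 level in CHLA9, and in TC71 these 2 did not differ beyond counting error. ENAH differed by -0.05 between G1 and G2M in CHLA9 and -0.19 in TC71. On UMIs that were neither mitochondrial nor ribosomal, the ENAH difference in CHLA9 was -0.0061 and no longer beyond counting error. TPM4 was higher in G1 in CHLA9 (0.09) and lower in TC71 (-0.14). TPM3 was higher in G1 in CHLA9 only (0.20, against 0.02 in TC71 with an interval across 0), and whether the lines differ was not tested. TPM1 did not differ beyond counting error in either line.

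Beyond counting error, 7 of the 10 were higher in G1 than in G2M in CHLA9, where 29.9% of 8621 genes were, and 2 were lower, where 38% were. In TC71, 5 were higher, where 14.4% of 8153 genes were, and 3 were lower, where 33.5% were. Such calls depend on the number of UMIs, and most of the 10 lie far above the 10 CPM floor of the other genes. In CHLA9, 10% of the 10 genes were at least 25% higher or 20% lower in G1 than in G2M, against 19.4% of 8621 genes. The CHLA9 gene was TMSB4X, whose difference shrank without the pair of cells described above. In TC71 the shares were 20% and 24.9%. Cell cycle was among the measures named in choosing the genes, so nothing is read from these counts and shares.

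**Figure D3:**
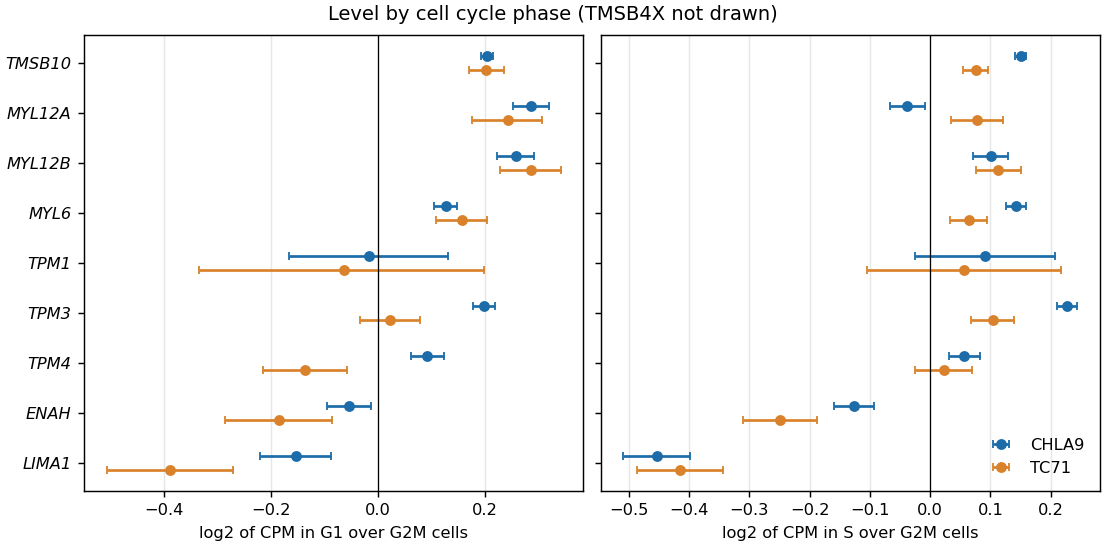
Log2 ratio of the summed CPM in G1 over G2M cells (left) and S over G2M cells (right) for 9 genes in CHLA9 and TC71, with exact 95% intervals for counting error. TMSB10 and the myosin light chains lie above 0 in the left panel, and ENAH and LIMA1 lie below 0 in both panels.

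Co-variation was described across cells thinned to 10000 UMIs, 4510 of CHLA9 and 1670 of TC71, leaving out 14 and 59 shallower cells. All correlations share the library, the counting error and the closed total of each cell. TMSB10, MYL12A and MYL12B were positively related to each other in both lines, with Spearman's rho of 0.067 to 0.089 in CHLA9 and 0.089 to 0.130 in TC71. TPM4, ENAH and LIMA1 were also positively related to each other, at 0.036 to 0.057 and 0.024 to 0.082. Over 882456 pairs of genes with at least 100 CPM in both lines, 5% of pairs were above 0.056 in CHLA9 and above 0.084 in TC71. LIMA1, at 77.6 CPM in CHLA9, lay outside these genes. Among 1328 partners of TMSB10 ranked by rho, MYL12A was at 104 in CHLA9 and 133 in TC71, and MYL12B at 133 and 153. Among those of TPM4, ENAH was at 33 and 39. Values of this size in sparse counts are weak.

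The 9 pairs across these 2 sets were not uniformly opposed. In CHLA9, 4 of 9 were positive and the range was -0.051 to 0.033, and in TC71 1 of 9 was positive and the range was -0.085 to 0.038. TPM4 was positively related to TMSB10 (0.033), MYL12A (0.026) and MYL12B (0.028) in CHLA9. In TC71 it was negatively related to TMSB10 (-0.057) and MYL12B (-0.043) and positively to MYL12A (0.038). ENAH was negatively related to all 3 in both lines, from -0.051 to -0.028 in CHLA9 and from -0.080 to -0.045 in TC71. MYL6, outside both sets, was related to TMSB10 at 0.154 in CHLA9 and 0.112 in TC71. Of all 45 pairs of the 10 genes, 22 were positive in both lines, 9 negative in both and 14 of opposite sign.

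**Figure D4:**
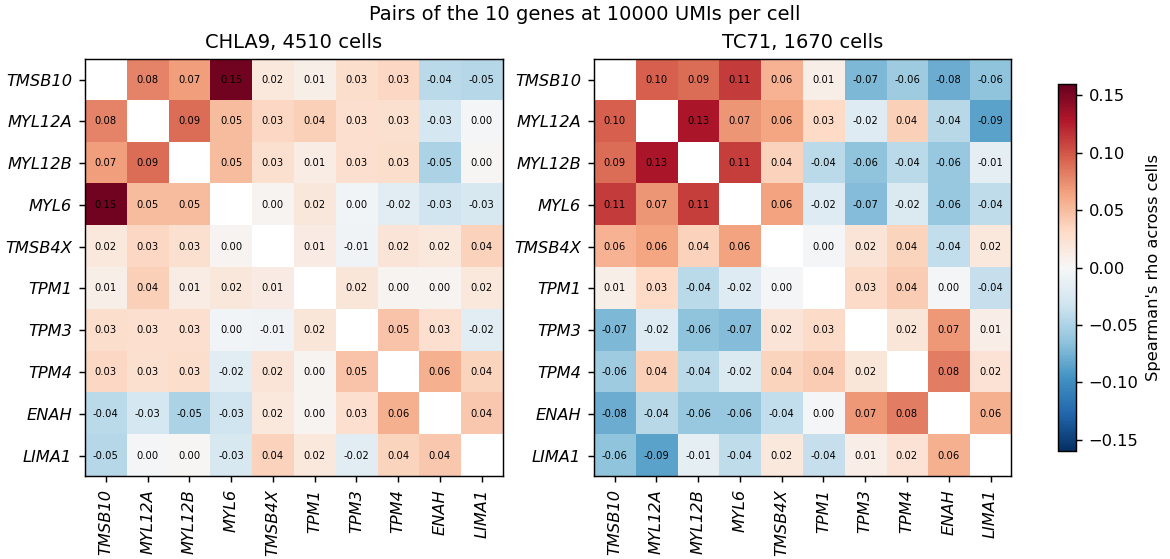
Spearman's rho between the UMIs of each pair of the 10 genes across cells thinned to 10000 UMIs, 4510 cells of CHLA9 (left) and 1670 of TC71 (right), on a colour scale from blue (negative) to red (positive). TMSB10, MYL12A, MYL12B and MYL6 form a positive block in both lines, and TPM4 is positive with TMSB10 in CHLA9 and negative in TC71.

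A score for each set was the mean natural log of 1 plus UMIs per 10000. The Spearman correlation between the TMSB10, MYL12A and MYL12B score and the TPM4, ENAH and LIMA1 score was -0.026 in CHLA9 and -0.107 in TC71. Its size depended on depth. In CHLA9 and TC71 it was -0.00267 and -0.0474 at 5000 UMIs per cell, and -0.0561 and -0.185 with no thinning. In CHLA9 it changed sign without ENAH (0.0094) and within G2M cells (0.00145). With the share of ribosomal protein UMIs held constant, an alternative added after the data were seen, it was -0.000264 in CHLA9 and -0.0167 in TC71.

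Other measures moved with both scores. The TMSB10, MYL12A and MYL12B score was related to the ribosomal protein share at 0.121 in CHLA9 and 0.345 in TC71, and the TPM4, ENAH and LIMA1 score at -0.214 and -0.266. With the nuclear RNA MALAT1 the values were -0.226 and -0.255 for the first score and 0.055 and 0.222 for the second. With the G2M score they were -0.191 and -0.140, and 0.047 and 0.139. With the number of genes detected they were -0.168 and -0.160, and 0.052 and 0.172. The mitochondrial share went with the first score at 0.075 in CHLA9 but -0.176 in TC71, and with the second at -0.096 and -0.061. ACTB went with the first score at 0.209 in CHLA9 but -0.016 in TC71, and with the second at 0.058 and 0.041. Of 1311 other genes with at least 100 CPM in both lines, those with the highest mean rho to the first score minus the second were the ribosomal protein genes RPL11, RPS24, RPL7A, RPS27A and RPS7. Those with the lowest were HNRNPU, MALAT1, CENPF, NCL and RAD21, which encode or are nuclear factors and RNAs. The genes most like TMSB10 were VIM, RPS24 and RPS7, with mean rho over the lines of 0.218, 0.201 and 0.191. The genes most like TPM4 were NCL, HNRNPU and ACTG1, with 0.120, 0.118 and 0.097.

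To keep counting error of the ranking out of the levels, cells were ranked by a score from one random part of their UMIs, an equal split, and levels were read in the other part. The 25% of cells with the lowest scores were then set against the 25% with the highest. From low to high TMSB10, MYL12A and MYL12B, MYL6 went from 736 to 841 CPM in CHLA9 and from 610 to 730 CPM in TC71. ENAH went from 227 to 198 CPM and from 184 to 157 CPM, and LIMA1 from 83.9 to 74.9 and from 137 to 112. TPM4 went from 350 to 364 CPM in CHLA9 and from 288 to 269 in TC71. MALAT1 went from 20047 to 13237 CPM and from 8819 to 5390, and the share of G1 cells from 14.3% to 36.6% and from 9.57% to 18.7%.

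From low to high TPM4, ENAH and LIMA1, TMSB10 went from 2878 to 2729 CPM in CHLA9 and from 1535 to 1332 in TC71. MYL12B went from 287 to 278 CPM, within counting error, and from 500.3 to 427 CPM. MYL12A went from 282.7 to 283.5 CPM in CHLA9, within counting error, and from 355 to 333 CPM in TC71. TPM3 went from 795 to 832 CPM and from 471 to 523. MALAT1 went from 15024 to 18216 CPM and from 5313 to 8660.

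Few of the genes were at least 25% higher or 20% lower in the high than in the low cells. By the first score, 0 of 4 members outside it with at least 100 CPM were higher in CHLA9 (0.738% of 1761 genes) and 0 lower (3.69%), and in TC71 1 of 6, TMSB4X, was higher (6.39% of 1580 genes) and 0 lower (9.68%). By the second score, 0 of 5 were higher (5.22%) or lower (0.284%) in CHLA9 and 0 of 6 higher (10.8%) or lower (1.46%) in TC71.

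**Figure D5:**
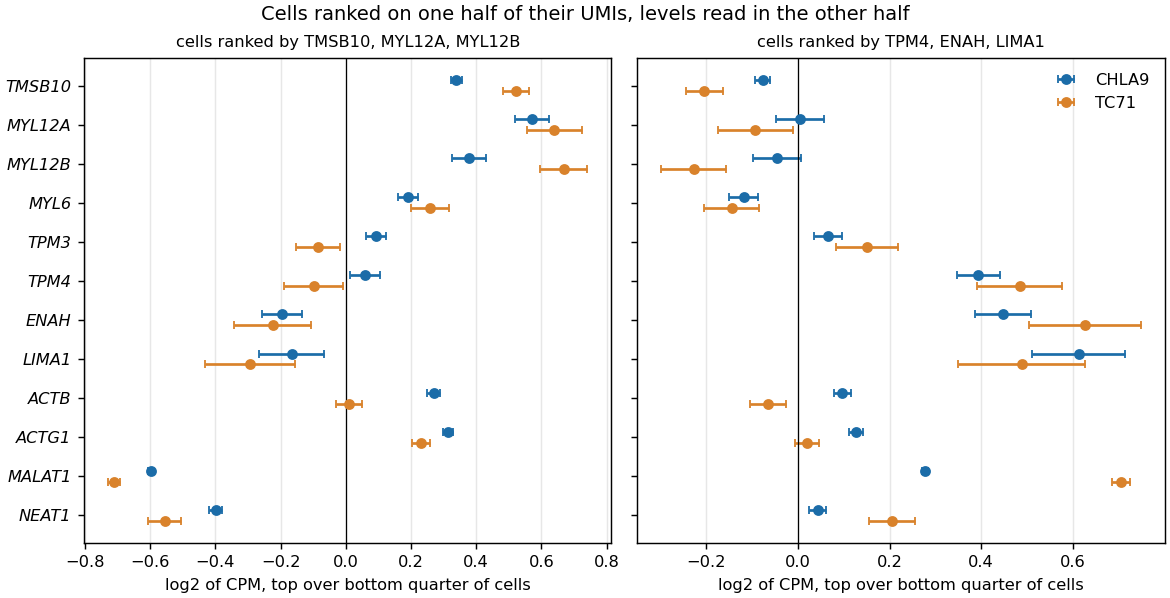
Log2 ratio of CPM in the 25% of cells with the highest over the 25% with the lowest score, ranked by TMSB10, MYL12A and MYL12B (left) or by TPM4, ENAH and LIMA1 (right) on one part of the UMIs and read in the other, with exact 95% intervals for counting error. ENAH, LIMA1, MALAT1 and NEAT1 lie below 0 in the left panel in both lines, TMSB10 and MYL6 lie below 0 in the right panel, and TPM4 lies on opposite sides of 0 in the left panel.

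Spread between cells beyond counting error was set beside that of other genes with a mean of at least 1 UMI. TMSB4X in TC71 had a coefficient of variation of 0.586, above 97.2% of 1572 genes, where the median was 0.240. TMSB10 had 0.212 in CHLA9 and 0.264 in TC71, near the medians of 0.214 and 0.240. ENAH in TC71 had 0.395, above 90.8% of genes.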

How the data were processed

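Single-cell libraries of CHLA9 and TC71 (1 per line) were used. The authors counted UMIs with Cell Ranger 3.1.0 on hg38 (the submitters' processing notes) and deposited raw counts per gene and barcode, with no normalization, for barcodes called as cells. The filters on UMIs, genes and mitochondrial share are given in the report. Doublets were not called or removed. The 10 genes, the lists and the tests were chosen with earlier results of these data known.

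Summed UMIs were expressed as CPM with exact Poisson intervals, ratios with exact conditional intervals and shares with Clopper-Pearson intervals (95%), using Python 3.11.15, numpy 2.4.6, scipy 1.17.1 and pandas 2.3.3. Figures were drawn with matplotlib 3.10.9. Cells were thinned with a seed of 1. Phases came from Seurat 5.3.0 in R 4.3.3 on genes detected in at least 10 cells. With 1 library per line the lines were not tested against each other and p-values were not computed. All 10 genes were named, with list genes named where at least 50 CPM and past 2-fold (up to 4 a list) or fixed by name, and like genes by rank of mean rho. The TATAA search was added after the promoter sequences had been seen. Coordinates are from GENCODE 44 on GRCh38. The scores, thinning and intervals were tested on simulated data, where the correction of correlations for counting variance overestimated the planted values. Alternatives covered filters, leaving out the 8% of cells with the most UMIs, depth, scaling, score form, members, phase scoring and cell weighting.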

Additional observations from a re-analysis of the deposited data

Results flagged for a closer look

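TPM4 and TPM3 moved in opposite directions in the lines under the same contrast, a difference that was not tested. For G1 over G2M cells, TPM4 had a log2 ratio of 0.0926 in CHLA9 and -0.136 in TC71. When the 25% of cells scoring highest were set against the 25% scoring lowest by TMSB10, MYL12A and MYL12B, it was 0.0583 for TPM4 in CHLA9 and -0.0983 in TC71, and 0.0919 and -0.0855 for TPM3.

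Barcodes under 5000 UMIs, which entered no comparison, also held RNA of the 10 genes. Their summed level was 1488 CPM over 277 barcodes of CHLA9 and 4120 CPM over 5869 barcodes of TC71, where the kept cells had 5613 and 4121 CPM. The TC71 barcodes held 13.2% of the UMIs of the library.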

How the results depend on the processing

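No paired analysis was possible because both lines have a single library. For the same reason no library could be left out. TMSB4X remained the 1 gene past 2-fold between the lines in all 9 alternatives, and its log2 ratio ranged from 3.49 (G1 cells only) to 6.26 (G2M cells only). The 2 CHLA9 cells highest in TMSB4X were both placed in G1. Without them its log2 ratio of G1 over G2M in CHLA9 fell from 3.11 to 0.753. Of the log2 ratios of single genes, 56 of 90 between lines, 86 of 100 between phases in CHLA9 and 85 of 90 in TC71 stayed within the 95% counting interval of the main value, and 0 of those beyond counting error reversed. A rho was taken as moved beyond 0.1, a limit wide beside these values.

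The Spearman correlation between the 2 scores ranged from -0.0561 to 0.0094 over 24 alternatives in CHLA9, where it reversed without ENAH (0.0094) and within G2M cells (0.00145), and another thinning seed gave -0.0138. In TC71 it ranged from -0.294 to -0.0167 over 23 alternatives and was -0.294 with the counting variance taken out, a correction that overestimated planted values. On UMIs that were neither mitochondrial nor ribosomal, 1 gene in place of 2 was lower in G1 in CHLA9, ENAH being the one lost (-0.0061). The causes were not tested. Alternatives without the 2 CHLA9 cells highest in TMSB4X, without shared barcodes and with the ribosomal share held constant were chosen after seeing the data. Depth limits TPM1, LIMA1 and TMSB4X most, since many thinned cells hold none.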
